A study of Homo sapiens with 6 samples.

Results

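The miR-17/92 cluster is a polycistron, a primary transcript that carries several microRNA (miRNA) hairpins in a row. Its 10 members here were chosen by name as the mature miRNAs of the MIR17HG transcript, out of 2588 miRNAs listed in the count table. All 10 passed the filter on low counts, which left 800 miRNAs to test. The libraries were made from Caco-2 cells, an established line from a colorectal adenocarcinoma. RNA was heat-denatured and precipitated with an antibody against N7-methylguanosine (m7G), a methylated guanosine known from mRNA caps, tRNA and rRNA, to give 3 m7G-RIP libraries. The 3 input libraries hold RNA of the same line that was not precipitated. By the study's protocol, input is an aliquot of the denatured RNA, set aside before precipitation. No treatment separates the groups, and the RNA of both was decapped, by the study's methods. The question put to these members is whether miRNAs cut from 1 primary transcript were recovered alike by the antibody.

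A primary miRNA transcript is cut in the nucleus into hairpins, and each hairpin is then cut by Dicer into a duplex of a 5p and a 3p strand, named for the side of the hairpin they come from. One strand is usually kept in an Argonaute protein, where its seed (bases 2 to 8 from the 5′ end) pairs with target mRNAs, and the other is mostly degraded. The miR-17/92 cluster is transcribed under MYC and E2F factors, is amplified in some lymphomas and is raised in colorectal and other tumours. Its miRNAs are known to repress the pro-apoptotic gene BIM and the cell cycle inhibitor p21, among others. In transcript order the hairpins are MIR17, MIR18A, MIR19A, MIR20A, MIR19B1 and MIR92A1.

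The 6 hairpins lie within 787 bases of human chromosome 13, from 91350605 to 91351391 on the plus strand of GRCh38, inside the non-coding host gene MIR17HG (ENSG00000215417.14, 91347686 to 91397592). GENCODE release 44 gives this gene 16 transcripts. Of these, 11 span the hairpins, which fall in an exon in 3 of them and in an intron in 8. Mature sequences were taken from RefSeq (GRCh38), which held all 10 members. They are shown because the comparisons below turn on strands of the same hairpin and on near-identical strands of different hairpins, and capitals mark the seed.
hsa-miR-17-5p: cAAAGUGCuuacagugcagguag
hsa-miR-20a-5p: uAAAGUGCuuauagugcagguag
hsa-miR-18a-5p: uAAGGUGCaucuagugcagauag
hsa-miR-19a-3p: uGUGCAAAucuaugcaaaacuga
hsa-miR-19b-3p: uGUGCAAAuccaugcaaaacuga
hsa-miR-92a-3p: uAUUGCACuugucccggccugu
hsa-miR-17-3p: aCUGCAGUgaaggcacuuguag
hsa-miR-18a-3p: aCUGCCCUaagugcuccuucugg
hsa-miR-20a-3p: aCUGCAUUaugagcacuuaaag
hsa-miR-92a-1-5p: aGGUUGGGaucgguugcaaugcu

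The first 6 of these are the strands by which the cluster is best known, and they fall into 4 seed groups. miR-17-5p and miR-20a-5p share a seed and differ at 2 of 23 positions when aligned at the 5′ end. miR-18a-5p has a related seed. miR-19a-3p and miR-19b-3p share a seed and differ at 1 of 23 positions. miR-92a-3p stands alone within the cluster. The other 4 members, miR-17-3p, miR-18a-3p, miR-20a-3p and miR-92a-1-5p, are the opposite strands, each with a seed of its own.

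Counts on miRNAs summed to between 16466178 and 19628046 in the input libraries and to between 1654102 and 3105129 in the m7G-RIP libraries. Levels are given as CPM, counts scaled to a common library total, with that total corrected for composition by edgeR's TMM factors. A floor of 3 counts came to between 0.235 and 0.262 CPM in the input and between 0.676 and 1.11 CPM in m7G-RIP, which covers counting error only. All 8 intestinal and epithelial marker miRNAs that were looked up were detected, with input means from 260 CPM for miR-141-3p to 54882 CPM for miR-192-5p. The liver miRNA miR-122-5p was at 0 in all 6 libraries, while miR-9-5p, known from neurons, and miR-1-3p, known from muscle, had 2923 and 644 CPM in the input. Other markers of those tissues were lower there, with 0.173 CPM for miR-124-3p of neurons and 60.7 and 0.164 CPM for miR-133a-3p and miR-206 of muscle. The 5 blood cell markers had input means between 0 (miR-223-3p) and 5.99 CPM (miR-142-3p). Neither group holds a library from a control antibody among those analysed here. The labels do not say that libraries of a group came from separate cultures, so p-values measure the spread between these libraries, which may be technical. As in any bulk sample, fewer cells of a type and less RNA per cell cannot be told apart in the marker levels of the input.

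Members of 1 transcript moved in opposite directions. Relative to input, 7 of the 10 members were depleted in m7G-RIP and 2 were enriched, at an adjusted p under 0.05 (quasi-likelihood F-test of edgeR, adjusted by Benjamini-Hochberg over all 800 miRNAs, 3 libraries per group). Of all miRNAs tested, 38.1% were depleted and 40.1% enriched by the same rule. Over all miRNAs this split of 305 and 321 became 198 and 442 when libraries were scaled by total counts and 227 and 418 with upper-quartile factors, while 7 members stayed depleted under both. The members' log2 enrichment had a median of -3.25 and ran from -5.58 to 2.72, while the median over all tested miRNAs was 0.16. The 2 enriched members were both strands of the last hairpin, MIR92A1. The member that passed the test in neither direction was miR-18a-3p.

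**Figure D1:**
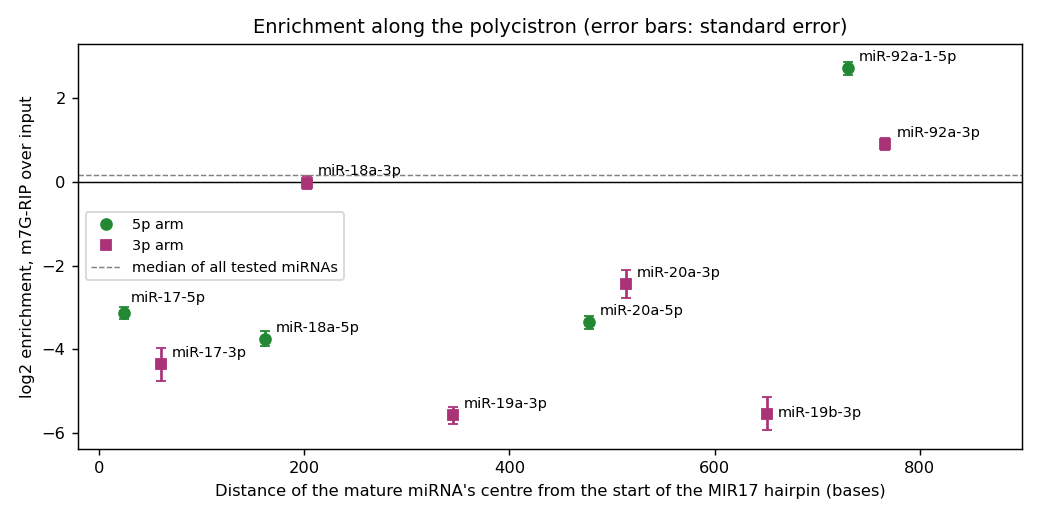
Log2 enrichment of m7G-RIP over input for each mature miRNA (vertical axis, points with edgeR standard error, n = 3 libraries per group) against the distance of its centre from the start of the MIR17 hairpin in bases (horizontal axis). The 2 strands at the right end, from MIR92A1, are above 0, miR-18a-3p is at 0, and the other 7 are between -5.58 and -2.44.

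The strands of the miR-17 seed group were depleted by similar amounts. miR-17-5p, which is known to repress p21 and other cell cycle inhibitors, had 5599.8, 5215 and 5662 CPM in input replicates 1 to 3. It had 628, 661 and 587 CPM in m7G-RIP replicates 1 to 3. All 3 m7G-RIP libraries lay far below all input libraries. The means were 5492 ± 242 (SD, n = 3) and 625 ± 37.4 (SD, n = 3) CPM, a log2 enrichment of -3.13 with a standard error of 0.14 (edgeR adjusted p = 3.372e-10). The other strand with this seed, miR-20a-5p, had 7473, 7110 and 7899 CPM in the input and 799, 736 and 655 CPM in m7G-RIP. The groups did not overlap here either, and the log2 enrichment was -3.36 with a standard error of 0.15 (edgeR adjusted p = 2.873e-10).

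miR-18a-5p, whose seed differs from that of miR-17-5p, was less abundant and was depleted as well. It had 342, 291 and 313 CPM in the input and 24.8, 21.6 and 23.9 CPM in m7G-RIP, so that the groups were far apart. Its log2 enrichment was -3.75 with a standard error of 0.18 (edgeR adjusted p = 5.014e-10), a 13.4-fold lower mean level.

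The lowest values in the cluster were those of the miR-19 strands, the members best known for driving lymphoma growth in mice. miR-19a-3p had 271, 318 and 277 CPM in the input and 6.55, 5.85 and 5.53 CPM in m7G-RIP. The 3 m7G-RIP libraries were close to each other, and the mean was 48.3-fold lower than in the input. The log2 enrichment of -5.58 (standard error 0.21, edgeR adjusted p = 9.37e-11) lay at percentile 1.88 of the 800 tested miRNAs. miR-19b-3p had 672, 583 and 640 CPM in the input and 22.3, 4.05 and 14.7 CPM in m7G-RIP. Here the m7G-RIP libraries were far apart, from 18 counts in replicate 2 to 92 in replicate 1, although all were well below the input. Its log2 enrichment was -5.54 with a standard error of 0.40 (edgeR adjusted p = 3.658e-08), and -6.24 without m7G-RIP replicate 1. miR-19b-3p is also encoded by MIR19B2 on the X chromosome (134169671 to 134169766, minus strand), and counts cannot be divided between the 2 loci.

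miR-92a-3p, known for repressing integrin genes in the vessel wall and BIM, was the most abundant member in every library. It had 62788, 65144 and 68108 CPM in the input and 139242, 111914 and 115153 CPM in m7G-RIP. All m7G-RIP libraries were above all input libraries, with means of 65347 ± 2666 (SD, n = 3) and 122103 ± 14931 (SD, n = 3) CPM, a 1.87-fold difference. Its log2 enrichment was 0.90 with a standard error of 0.14 (edgeR adjusted p = 8.028e-05). The size depended on the scaling, from 0.55 with DESeq2's size factors to 2.00 with total counts, and all of these values passed the test. With TMM factors it was at percentile 60 of the tested miRNAs, near the middle of their distribution. miR-92a-3p has a second locus too, MIR92A2 on the X chromosome (134169538 to 134169612, minus strand).

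The strand opposite to it, miR-92a-1-5p, comes from MIR92A1 alone and was the most enriched member. It had 144, 155 and 138 CPM in the input and 885, 985 and 1004 CPM in m7G-RIP, with every m7G-RIP library far above every input library. The log2 enrichment was 2.72 with a standard error of 0.15 (edgeR adjusted p = 1.872e-09), at percentile 83 of the tested miRNAs. The difference in mean level was 6.58-fold.

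The remaining opposite strands were rare. miR-17-3p had 378, 422 and 377 counts in the input and 12, 4 and 2 counts in m7G-RIP. The input libraries were alike, but the m7G-RIP libraries were near the floor. The log2 enrichment was -4.36 with a standard error of 0.40 (edgeR adjusted p = 4.003e-07), and -5.30 without m7G-RIP replicate 1. miR-20a-3p had 164, 205 and 160 counts in the input and 9, 12 and 9 counts in m7G-RIP, a log2 enrichment of -2.44 with a standard error of 0.34 (edgeR adjusted p = 2.456e-05). It was the rarest member in the input and the least depleted of the 7.

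miR-18a-3p had overlapping levels in both groups on this scale. It had 140, 131 and 136 CPM in the input and 137, 134 and 132 CPM in m7G-RIP. The libraries of the groups overlapped, and 1 of 3 same-numbered pairs was higher in m7G-RIP. The log2 enrichment was -0.01 with a standard error of 0.15 (edgeR adjusted p = 0.9452), and this value depended on the scaling between libraries. Its log2 enrichment was -0.36 with DESeq2's size factors (adjusted p = 0.0411), 0.81 with upper-quartile factors (adjusted p = 0.0004561) and 1.09 with total counts (adjusted p = 7.977e-05), all in edgeR's test. Relative to TMM factors, the median change in log2 enrichment over all tested miRNAs was -0.34, 0.82 and 1.09 under these scalings. The directions of the other 9 members were the same under all of these scalings.

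**Figure D2:**
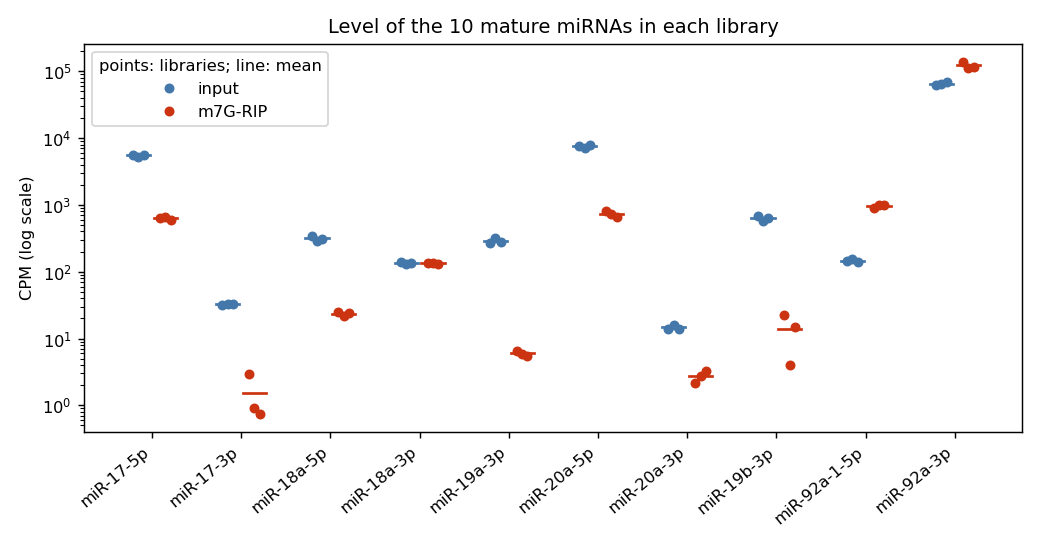
Level of the 10 members in CPM on a log scale (vertical axis), with 1 point per library and a line at the mean of each group (blue input, red m7G-RIP, n = 3 each). The groups overlap for miR-18a-3p. m7G-RIP is above input for miR-92a-1-5p and miR-92a-3p and below it for the rest. How often the groups separate among all tested miRNAs was not counted.

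The order of the levels changed between the groups. The annotated sequences of the members are 22 or 23 bases long. The lengths of the reads counted on them were not examined, so the order is one of counts. By mean CPM, the input order was miR-92a-3p, miR-20a-5p, miR-17-5p, miR-19b-3p, miR-18a-5p, miR-19a-3p, miR-92a-1-5p, miR-18a-3p, miR-17-3p and miR-20a-3p. The ranges over libraries overlapped between miR-18a-5p and miR-19a-3p and between miR-92a-1-5p and miR-18a-3p, and between no other neighbours. In m7G-RIP, miR-92a-1-5p came second with 958 ± 64.1 (SD, n = 3) CPM, above miR-20a-5p with 730 ± 72.3 (SD, n = 3), and miR-18a-3p rose to the fifth place. The m7G-RIP ranges of miR-20a-5p and miR-17-5p overlapped. So did those of miR-18a-5p and miR-19b-3p, of miR-19b-3p and miR-19a-3p, and of miR-20a-3p and miR-17-3p.

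Whether 2 members differed in their enrichment was tested on the ratio of their counts within each library, which does not depend on the scaling between libraries. The m7G-RIP and input libraries were compared with limma on the log2 ratio (with 0.5 added to each count), with each member in turn as the denominator for all tested miRNAs. Of 45 pairs of members, 38 differed at an adjusted p under 0.05 with either member as the denominator, and the larger of both adjusted p-values is given here. Of the ratios of all tested miRNAs to a member, 82.3% passed with that member as the only denominator, from 76.1% for miR-92a-3p to 94.1% for miR-19a-3p. The share of pairs that differed, 84.4%, was near this background, so the count says nothing particular about members of 1 transcript. The widest gap was between miR-92a-1-5p and the miR-19 strands. The ratio of miR-19b-3p to miR-92a-1-5p was 371-fold lower in m7G-RIP (log2 -8.54, standard error 0.49, limma adjusted p = 6.598e-09). The ratio of miR-92a-1-5p to miR-17-5p, from the other end of the transcript, was 57.8-fold higher (log2 5.85, standard error 0.14, limma adjusted p = 1.682e-10). The strands of the cluster's last hairpin also differed from miR-18a-3p, which was lower relative to miR-92a-3p by a log2 of -0.91 (limma adjusted p = 0.0004335).

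Within seed groups no difference in enrichment was found. For miR-20a-5p over miR-17-5p the log2 change of the ratio was -0.23, with a 95% interval from -0.49 to 0.04 (limma adjusted p = 0.1001). The interval leaves room for a small difference only, and without m7G-RIP replicate 1 the change of -0.29 passed the test (limma adjusted p = 0.02648). For miR-19a-3p over miR-19b-3p the change was 0.26, with an interval from -1.41 to 1.93 (limma adjusted p = 0.7641). That interval is wide, and miR-19b-3p had m7G-RIP libraries far apart, as given above. Across seeds, miR-18a-5p fell relative to miR-17-5p by a log2 of -0.60 (limma adjusted p = 0.005498). Relative to miR-20a-5p its change of -0.38 had an interval from -0.74 to -0.01 and did not pass (limma adjusted p = 0.0534). The other 4 pairs that did not pass all held miR-17-3p or miR-20a-3p, with changes between -1.03 and 1.29.

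The strands of a hairpin were then set against each other. Across the 189 hairpins with both strands tested, the log2 5p/3p ratio differed between m7G-RIP and input in 69.8% (limma on log2 ratios, adjusted p under 0.05), with a median change of 0.77. For 5 hairpins of the cluster the ratio could be tested, and all 5 passed. Most hairpins of the whole table passed as well, so the count is no feature of the cluster. The changes differed in size and direction, and that of MIR18A was the most precise of the 5. In the input miR-18a-5p was the commoner strand, with 2.44, 2.23 and 2.31 counts per count of miR-18a-3p in replicates 1 to 3. In m7G-RIP the order was turned around, with 5.51, 6.16 and 5.49 counts of miR-18a-3p per count of miR-18a-5p. The log2 5p/3p ratio changed by -3.73 with a standard error of 0.12 (limma adjusted p = 9.197e-07), at percentile 8.99 of the hairpins.

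MIR92A1 moved the other way. miR-92a-3p outnumbered miR-92a-1-5p by 435, 420 and 495 to 1 in the input and by 157, 114 and 115 to 1 in m7G-RIP. Both strands were enriched, and the rare 5p strand more so. The log2 5p/3p ratio changed by 1.82 with a standard error of 0.15 (limma adjusted p = 4.995e-05). This was at percentile 61.9 of the hairpins, not far from the middle of their distribution. Any reads of miR-92a-3p from its X-linked locus enter this ratio, and their share was not tested. The 5p strand of that locus, miR-92a-2-5p, was at 0 in all 6 libraries, which does not measure its 3p strand.

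The other hairpins had a strand near the floor in m7G-RIP, and their ratios were less certain. MIR17 changed by 1.40 with a standard error of 0.50 (limma adjusted p = 0.03914), from 174, 158 and 172 counts of miR-17-5p per count of miR-17-3p to 207, 653 and 637. With 5 instead of 0.5 added to each count the change was 0.44 and did not pass (limma adjusted p = 0.2508). m7G-RIP replicate 1 stood near the input values. MIR20A changed by -0.99 with a standard error of 0.34 (limma adjusted p = 0.03726), from ratios of 533, 442 and 564 to 347, 261 and 187. With the replicate number as a block, neither MIR17 nor MIR20A passed (limma adjusted p = 0.0586 and 0.0824). Neither call was kept when any input library, m7G-RIP replicate 2 or m7G-RIP replicate 3 was left out. MIR19B1 changed by 2.92 with a standard error of 0.86 (limma adjusted p = 0.02038) and by 1.89 without m7G-RIP replicate 2, and the call was lost without input replicate 1 or 2 (limma adjusted p = 0.0612 and 0.0564). Its 5p strand, miR-19b-1-5p, had 132, 129 and 141 counts in the input and 6, 10 and 2 in m7G-RIP, a log2 enrichment of -2.83 with a standard error of 0.42 (edgeR adjusted p = 4.132e-05). The last strand of the transcript, miR-19a-5p, had 0, 1 and 8 counts in the input and none in m7G-RIP, and was not tested.

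**Figure D3:**
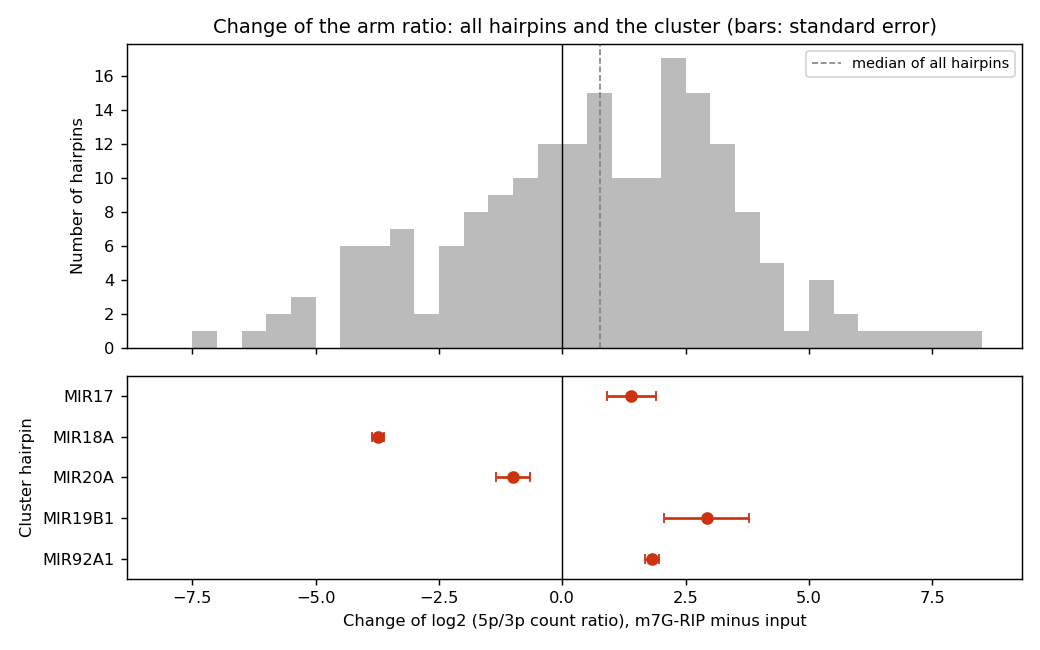
Change of the log2 5p/3p count ratio from input to m7G-RIP (horizontal axis). The upper panel counts the 189 tested hairpins per bin, with their median of 0.77 as a dashed line, and the lower panel shows the cluster's 5 hairpins with limma standard errors, of which MIR18A and MIR20A are below 0 and MIR17, MIR19B1 and MIR92A1 above.

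The cluster as a whole took a larger share of the m7G-RIP libraries, and nearly all of the increase lay in 1 member. The 10 members held 5.46%, 5.14% and 5.79% of all miRNA counts in input replicates 1 to 3 and 18.9%, 16.4% and 19.3% in m7G-RIP replicates 1 to 3. The groups did not overlap (5.46 ± 0.33 against 18.2 ± 1.59%, SD, n = 3 each, exact permutation test, two-sided, p = 0.1, the smallest that 3 against 3 libraries can give). Halving the counts of miR-92a-3p and miR-19b-3p, in case reads were counted at both of their loci, gave 3.28 ± 0.21% and 10.2 ± 0.96% (SD, n = 3 each), a rise of 6.91 percentage points instead of 12.7. As mean percent of all counts, miR-92a-3p went from 4.47 to 17.8, miR-92a-1-5p from 0.00994 to 0.141 and miR-18a-3p from 0.00927 to 0.0197, while the other 7 members went down. Summed over all members but miR-92a-3p the share went the other way, from 0.996 ± 0.083% to 0.366 ± 0.032% (SD, n = 3 each, exact permutation p = 0.1). miR-92a-3p made up 81.8 ± 0.71% of the cluster's counts in the input and 98.0 ± 0.23% in m7G-RIP (SD, n = 3 each, exact permutation p = 0.1). miR-372-3p and miR-21-5p, which are not members, are large parts of the input libraries. With both taken out of the totals, the difference in the cluster's share was 9.47 percentage points.

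miR-92a-3p and miR-19b-3p have 2 loci each, and how reads with several loci were counted is not stated. The composition was therefore also computed over the 8 members with a single locus. In the input, miR-20a-5p and miR-17-5p made up 53.8 ± 0.67% and 39.5 ± 0.44% of these counts (SD, n = 3). In m7G-RIP they made up 29.4 ± 2.54% and 25.2 ± 0.82% (SD, n = 3). miR-92a-1-5p took the largest share there, 38.6 ± 3.03% against 1.05 ± 0.11% in the input (SD, n = 3). miR-18a-3p went from 0.974 ± 0.033% to 5.41 ± 0.14% (SD, n = 3). Each of these 4 shares separated the groups, with an exact permutation p of 0.1, the smallest possible. The share of miR-20a-3p did not (0.106% and 0.110%, exact permutation p = 0.8).

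**Figure D4:**
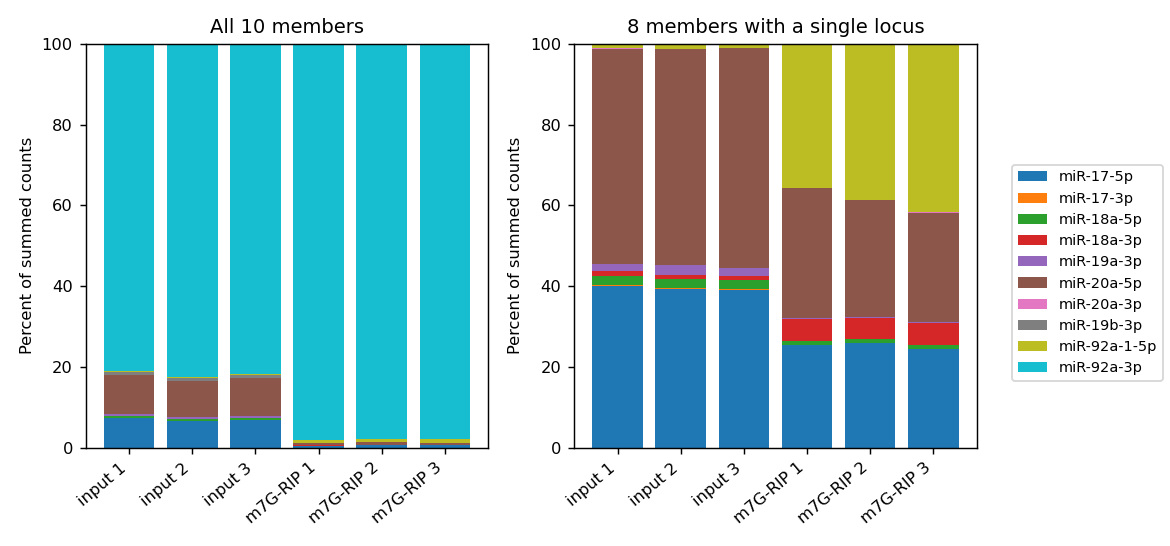
Percent of the summed counts taken by each member in each library, over all 10 members (left) and over the 8 members with a single locus (right). On the left miR-92a-3p fills 81.0% to 98.2% of every bar, and on the right miR-92a-1-5p grows from about 1% of the input to between 35.6% and 41.6% of m7G-RIP.

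The members were next described by a feature that the choice by name did not use, the guanosines of their sequence. m7G is a modified guanosine, and runs of guanosines are known to form G-quadruplexes, stacked structures of 4 guanosine tracts. miR-92a-1-5p stood apart from the other members. It has 9 guanosines of 23 bases (39.1%) and 4 GG steps, a step being any G followed by a G, so that GGG holds 2. Of the other members, 6 have 1 GG step, and miR-19a-3p, miR-19b-3p and miR-20a-3p have none. The miR-19 strands also have the lowest share of guanosine, 17.4%. The guanosine runs of miR-92a-1-5p and of its tested counterparts from paralogous hairpins are shown in capitals, since these strands come up again among the paralogs.
hsa-miR-92a-1-5p: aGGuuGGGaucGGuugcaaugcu
hsa-miR-25-5p: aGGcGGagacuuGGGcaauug
hsa-miR-92b-5p: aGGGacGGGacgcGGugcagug

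A RefSeq sequence was found for 714 of the 800 tested miRNAs. Of these, 35.7% had at least 3 GG steps, and their median log2 enrichment was 2.37. The median was -0.79 with 2 steps, -1.40 with 1 step and -0.65 with none. The value of miR-92a-1-5p, 2.72, lay near the median of the first group. The 6 members with 1 step ran from -4.36 to 0.90, and the 3 with none from -5.58 to -2.44. miR-18a-3p and miR-92a-3p, with 1 step each, were above the other members with 1 step. They have the highest share of G and C together in the cluster, 56.5% and 54.5%. Their share of guanosine alone, 21.7% and 22.7%, is below that of the other members with 1 step, 30.4% to 31.8%. Among the members with 1 step, a higher share of guanosine thus did not go with higher enrichment. Across the 714 miRNAs Spearman's rho with log2 enrichment was 0.50 for the share of guanosine, 0.49 for the number of GG steps and 0.45 for the share of G and C. These are descriptions across miRNAs of the same libraries, and the features are not independent of each other.

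**Figure D5:**
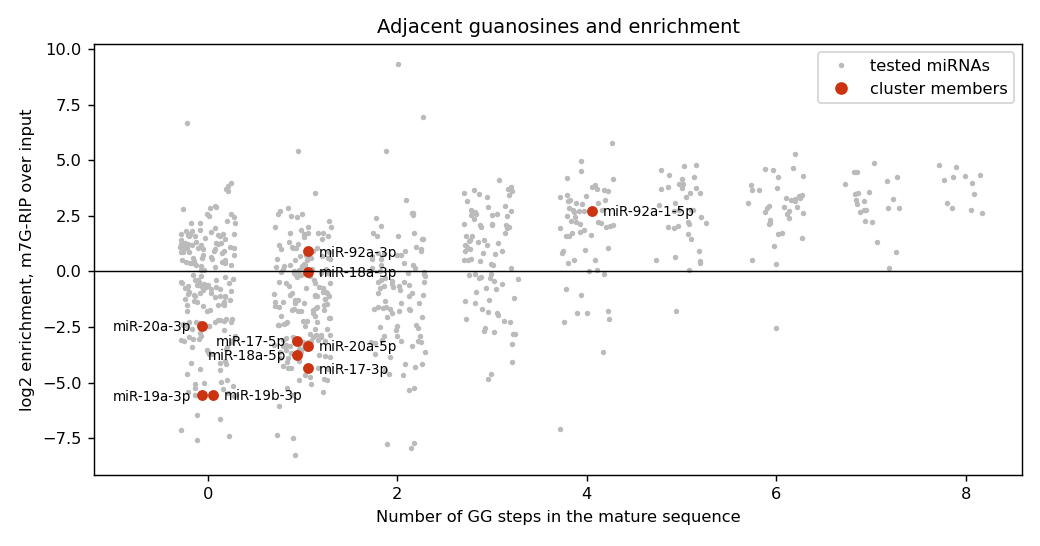
Log2 enrichment of m7G-RIP over input (vertical axis) against the number of GG steps in the mature sequence (horizontal axis, gray points spread sideways at random within a step), for 714 tested miRNAs (gray) and the 10 members (red). miR-92a-1-5p is the only member with more than 1 step and the highest of the 10.

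The cluster has relatives that arose by duplication: the MIR106A cluster on the X chromosome, the MIR106B, MIR93 and MIR25 hairpins in an intron of MCM7, and MIR92B. Of 18 mature miRNAs listed from them, 11 were tested. Of these, 8 were depleted and 3 enriched in edgeR's test, with a median log2 enrichment of -1.52. Over all 800 tested miRNAs, 38.1% were depleted and 40.1% enriched by the same rule, with a median of 0.16. As in the miR-17/92 cluster, the tested strands with the miR-17 seed were all depleted. Among them, miR-20b-5p had 107, 120 and 99 counts in the input and 2, 5 and 0 in m7G-RIP. miR-18b-5p, also among the depleted, had 143, 158 and 123 counts in the input and 2, 7 and 0 in m7G-RIP. Both were near the floor in m7G-RIP and passed the filter through their input counts, so their calls carry no separate weight. miR-106b-5p had a log2 enrichment of -5.02 with a standard error of 0.19, and miR-93-5p -2.43 with a standard error of 0.13. miR-106a-5p, which differs from miR-17-5p at 1 base, had -3.07 with a standard error of 0.20, close to the -3.13 of miR-17-5p. Reads of such near-identical strands can be exchanged between them, so their values are not fully separate.

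The guanosine-rich 5p strands opposite to the miR-92 family were enriched from the MIR25 and MIR92B hairpins, as miR-92a-1-5p was. Those of the X-linked cluster, miR-92a-2-5p and miR-363-5p, were at 0 in all 6 libraries and could not be tested. miR-25-5p had 162, 166 and 174 CPM in the input and 598, 590.4 and 654 CPM in m7G-RIP, with no overlap between the groups and a log2 enrichment of 1.87 with a standard error of 0.14. miR-92b-5p had a log2 enrichment of 2.43 with a standard error of 0.21. The 3p strands, which share the seed of miR-92a-3p, did not move as one. miR-92b-3p had 1.72 with a standard error of 0.13, and miR-25-3p, which differs from miR-92a-3p at 4 positions, had -1.47 with a standard error of 0.17. The X-linked cluster also holds the second loci of miR-92a-3p and miR-19b-3p. Its miR-19b-2-5p was at 0 in all 6 libraries too. Its miR-106a-5p had 1568, 1704 and 1625 counts in the input against 65685, 66573 and 64886 counts of miR-17-5p. What part of the counts of miR-92a-3p and miR-19b-3p came from the X chromosome was not tested.

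Outside the cluster and its relatives, 248 abundant miRNAs (log2 CPM averaging 5 or more) were searched for profiles over the 6 libraries like those of the most abundant depleted and enriched seed groups. Likeness was measured as the root mean square difference in log2 CPM after each miRNA's mean was subtracted. The 3 nearest to miR-17-5p were miR-532-5p, miR-194-5p and miR-378a-5p, at 0.079, 0.126 and 0.126. Their log2 enrichment was -3.15, -3.28 and -2.96, beside the -3.13 of miR-17-5p. The 3 nearest to miR-92a-3p were miR-625-5p, miR-625-3p and miR-125a-5p, at 0.087, 0.088 and 0.097. These had log2 enrichment of 0.82, 0.83 and 0.88, beside the 0.90 of miR-92a-3p. The counts of miR-625-5p and miR-625-3p were nearly equal in every library, so they are not separate profiles. For both references, close enrichment follows from the choice by distance over the same 6 libraries, so it is no separate result.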

How the data were processed

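Small RNA was sequenced from 3 input and 3 m7G-RIP libraries of Caco-2 cells. The authors trimmed reads with Trimmomatic, aligned them to GRCh38 and counted them on mature miRNAs of miRBase with featureCounts, without pooling replicates. The methods name STAR as the aligner, letting a read map to at most 10 loci, while the submitters' processing notes name Bowtie2, and how reads with several loci were counted is not given in the sources used here. The deposited values are raw counts per miRNA, without normalization.

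From these counts, edgeR 4.0.16 in R 4.3.3 was fitted on the whole table (filterByExpr with a minimum count of 10 and a minimum total of 15, TMM factors, quasi-likelihood test, Benjamini-Hochberg adjustment). A standard error is the absolute log2 enrichment divided by the square root of F. Ratios of strands and of members were tested with limma 3.58.1 and shares with exact permutation tests. Sequences, coordinates and plots were made with Python 3.11.15. The steps were tested on simulated data with 200 changed miRNAs, a smaller part than was called in the real data. There edgeR recovered 58.5% of log2 changes of 1 and 95.5% of log2 changes of 2. The strand ratio test recovered 28.6% and 72.7%, so it misses most changes of that smaller size.

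Alternatives were DESeq2 1.42.0 (size factors, and the study's Wald test), total counts, upper-quartile factors, 2 filters, pseudocounts of 1 and 5, other totals for shares, a replicate block and leaving out each library. Halving the counts of members with 2 loci was chosen after seeing the data. The members and lists were chosen with earlier results of these data known. All members and paralogs are named by the list, and nearest profiles by distance. No 2 libraries of a group were copies (chi-square per degree of freedom 17.5 to 105).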

Additional observations from a re-analysis of the deposited data

How the results depend on the processing

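The enrichment of 9 members kept its direction and its side of the threshold under every alternative in which it was tested. With a minimum of 10 counts per library, miR-17-3p and miR-20a-3p were not tested. miR-18a-3p was above 0 with total counts (1.09) and upper-quartile factors (0.81), was depleted with DESeq2's size factors and with its Wald test (-0.36 in both), and lay between -0.16 and 0.0601 when single libraries were removed. The count of hairpins with a changed strand ratio, 5, fell to 2 under that minimum, where only MIR18A and MIR92A1 were tested, and lay between 2 and 5 when single libraries were removed. With a pseudocount of 5, MIR17 changed by 0.44 (limma adjusted p = 0.2508). The rise in the cluster's share of all counts, 12.7 percentage points, was 9.47 without miR-372-3p and miR-21-5p in the total and 6.91 with the counts of miR-92a-3p and miR-19b-3p halved, where the rise in the share of miR-92a-3p within the cluster was 26.4 instead of 16.2. Over the 8 members with a single locus the change in share was 4.44 for miR-18a-3p and 0.00474 for miR-20a-3p, against -0.0611 and -0.0161 over all 10. These totals differ by construction, and for the other changes the cause was not tested.

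Same-numbered libraries did not deviate together (correlations of -0.0142, -0.0275 and 0.0600), so the numbers were not used as pairs. With the replicate number as a block, 2 members were enriched and 7 depleted, 37 pairs of members differed instead of 38, and 3 hairpins changed their strand ratio instead of 5, with adjusted p = 0.0586 for MIR17 and 0.0824 for MIR20A in limma. The pairs that differed numbered 39 with a pseudocount of 1 and with 5, 26 of 28 under the minimum of 10 counts, and 34 to 41 when single libraries were removed. Depth limits miR-17-3p, miR-20a-3p and miR-19b-1-5p, which had at most 12 counts in any m7G-RIP library.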

Other observations

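The counts hold traces of how reads with several loci were counted. For the 3 tested miRNAs with 4 loci in RefSeq, all 18 counts above 0 were multiples of 4. Of the counts above 0 of 47 tested miRNAs with 2 loci, 195 of 266 (73.3%) were even, against 50.3% for 651 miRNAs with 1 locus. For miR-92a-3p and for miR-19b-3p, which have 2 loci each, 5 of 6 counts were even, and for the single-locus members miR-17-3p and miR-18a-5p also 5 of 6. What share of the reads of miR-92a-3p and miR-19b-3p was counted at both loci was not tested. A factor that is the same in every library leaves an enrichment unchanged and alters a share or a level.

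miR-625-5p and miR-625-3p, named for their nearness to miR-92a-3p, had mean levels of 282 CPM each in the input and of 499 CPM each in m7G-RIP. Their log2 5p/3p count ratio lay between -0.00155 and 0.00228 in the 6 libraries, so these entries held practically equal counts in each library. Whether the same reads were counted on both was not tested.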
